A study of Mus musculus with 13 samples.

Results

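This comparison set 4 induced pluripotent stem (iPS) clones of the mouse against embryonic stem (ES) cells and described the autosomal differences that the 4 clones shared. The arrays titled MPSVII iPS clones 1, 2, 5 and 6 formed one side, with 2 arrays per clone and each clone weighted equally, and the 2 arrays titled MPSVII ES cells formed the other. These are 10 of the 13 arrays of the study, and arrays were assigned by their titles alone. The other arrays were 1 of the ES line B6 Blu (strain C57BL/6NTac) and 2 of mouse embryonic fibroblasts (MEF), the cell type from which the clones were made. All lines but B6 Blu carry the strain label C57Bl/6.

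The letters MPSVII stand for mucopolysaccharidosis type VII. In this disease of lysosomal storage the enzyme beta-glucuronidase, encoded by Gusb, is lost. The titles and the design text assign this model to the clones, the MEF and the MPSVII ES cells, whereas the clones' source and growth entries name wildtype B6 fibroblasts. Per the labels, fibroblasts were transduced with a lentivirus named OSK, and single colonies were picked and expanded on feeder layers of MEF. Each clone therefore stems from 1 colony. No label states the sex of a line or whether its 2 arrays came from separate cultures, so p-values measure the spread between these arrays, which may be technical.

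ES cells and iPS cells are kept pluripotent by a network of transcription factors around Oct4 (Pou5f1), Sox2 and Nanog. In mouse cells grown with the cytokine LIF, further factors such as Esrrb, Tbx3, Klf5 and Tfcp2l1 mark the naive state, which resembles the epiblast before implantation. Cells that synthesise membrane also need sterols and unsaturated fatty acids, whose enzymes are controlled by the transcription factors SREBP1 (Srebf1) and SREBP2 (Srebf2).

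Amplified total RNA was measured on Mouse Exon 1.0 ST arrays of Affymetrix, and values are log2 signal, in which a difference of 1 is a doubling. The profiles of the clones and of MPSVII ES correlated across rows with r between 0.941 and 0.976, those of different clones with r between 0.938 and 0.977 and those of arrays of 1 line with r between 0.955 and 0.982, where rows do not count as replicates. The mean signal of 10 pluripotency markers was 7.50 to 8.52 in the clones, 8.49 and 8.51 in MPSVII ES, 7.90 in B6 Blu ES and 3.76 and 3.78 in MEF. The mean of 10 fibroblast markers, which feeder cells would also express, was 4.10 to 5.20 in the clones, 4.52 and 4.55 in MPSVII ES, 5.58 in B6 Blu ES and 7.94 and 8.35 in MEF. Of these 10 fibroblast markers, 0 were called higher and 1 lower in the clones, and the part of feeder cells in any result was not tested. Gusb was at 3.47 to 4.25 in the clones and at 3.76 and 3.72 in MPSVII ES, and its levels overlapped (log2 difference 0.00 ± 0.24, adjusted p = 0.999).

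The clone 2 arrays stood apart. Their interquartile ranges of log2 signal were 1.88 and 1.70, against 1.96 to 2.39 on the other clone arrays and 2.20 and 2.25 in MPSVII ES, and limma's array weights were lowest for this clone (0.591). The part of this in the results was not tested.

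Differences shared by the clones were few. They were mostly decreases with all clones included, but not with clone 2 left out. Of 14405 autosomal rows with 1 gene symbol, 140 (0.972%) passed limma's test, 35 higher (0.243%) and 105 lower (0.729%) in the clones. Calls required a p under 0.05 after Benjamini-Hochberg adjustment over the 16661 rows tested. In 27 of the higher rows (0.187% of all) the 8 clone arrays lay above both MPSVII ES arrays, and in 94 of the lower rows (0.653%) they lay below both. These 121 rows are called shared here, and 102 of the 140 calls (0.708%) reached 1 log2 unit. Without regard to the test, 301 rows (2.09%) had all clone arrays above and 787 rows (5.46%) had all of them below. The median difference was 1.15 over the shared higher rows and -1.17 over the shared lower rows, beside -0.04 over all autosomal rows.

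The calls rested on the MPSVII ES arrays and on treating arrays as the samples. Without MPSVII ES replicate 1, 2 rows were higher (Spink1 and Obox6) and 0 lower (920 rows at an unadjusted p under 0.05), and without replicate 2 there were 5 and 17. Without clone 2 increases outnumbered decreases, at 89 higher and 70 lower (82 and 64 shared). With each clone's mean as 1 sample 0 rows were called by limma (582 at an unadjusted p under 0.05), and with line as a random block 0 were higher and 3 lower (Slc16a9, Efcab7 and Mmp3). The share of calls that were higher was 25% in the deposited values, 38.3% after quantile normalization, 34.5% after median centring and 41.1% after intensity-dependent normalization. Most of the 66 called genes followed through the alternatives lost the call without MPSVII ES replicate 1, and most also without replicate 2.

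The increases were led by genes better known from the gut, the oocyte and muscle. Spink1, a trypsin inhibitor of the pancreas, was at 9.91 and 10.19 in clone 1, 10.92 and 10.95 in clone 2, 10.64 and 10.24 in clone 5, and 8.61 and 8.46 in clone 6, against 6.55 and 6.74 in MPSVII ES. Every clone array exceeded the higher ES array, with clone 6 nearest to it. The difference was 3.34 ± 0.22 (SE; 10.2-fold; limma adjusted p = 7.45e-05), and B6 Blu ES was at 7.09. Obox6, a homeobox gene of a family expressed in oocytes and early embryos, was at 5.51 and 6.12, 6.33 and 6.19, and 5.63 and 5.37 in clones 1, 2 and 5, at 3.58 and 3.08 in clone 6, and at 2.30 and 2.92 in MPSVII ES. Clones 1, 2 and 5 formed a high group and clone 6 lay just above the ES arrays. The mean difference was 2.62 ± 0.22 (limma adjusted p = 0.000871), but 0.72 for clone 6 alone.

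Acta2, the actin of smooth muscle and contractile fibroblasts, was at 4.90 to 7.11 on the 8 clone arrays, against 3.46 and 3.53 in MPSVII ES, a difference of 2.28 ± 0.32 (limma adjusted p = 0.0128). MEF, at 11.33 and 10.90, and B6 Blu ES, at 8.27, were both above all clone arrays. Of 17 smooth muscle and actin genes with a row, 1 (Acta2) rose and 0 fell, and 5 had all clone arrays above both ES arrays. Of all autosomal rows, 0.243% were called higher and 2.09% had all clone arrays above. The list's median was 0.14, with values of 0.95 for Cnn1 (calponin), 0.83 for Tpm1 and 1.01 for Tpm2 (tropomyosins), which did not pass the test. The fibroblast marker means given above overlapped between the clones and MPSVII ES, and were higher in B6 Blu ES and MEF. Their part in the Acta2 values was not tested.

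Of 25 genes of the pancreas and intestine, 3 rose and 0 fell, with a median of 0.03 (0.243% of all rows were called higher). They were Spink1, Mep1b, a subunit of the brush border protease meprin, and Car2, a carbonic anhydrase. Mep1b was at 4.81 to 6.59 on the clone arrays and at 4.15 and 3.44 in MPSVII ES (difference 1.85 ± 0.25, limma adjusted p = 0.0113). Car2 was at 3.97 to 5.17 in the clones and at 2.61 and 3.44 in MPSVII ES (1.45 ± 0.21, limma adjusted p = 0.0156), and at 4.94 in B6 Blu ES. Dpp4, a brush border peptidase, differed by 0.93 without passing the test.

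Cox7b2, a testis form of a cytochrome c oxidase subunit, rose by 1.70 ± 0.19, with 4.06 to 5.86 on the clone arrays against 3.32 and 3.27 in MPSVII ES. Duxbl1, a double homeobox gene, rose by 1.55 ± 0.20, with arrays at 4.56 to 6.00 in the clones and at 3.50 and 3.94 in MPSVII ES, while B6 Blu ES was at 5.38. Elavl2, a neuronal RNA-binding protein, rose by 1.33 and Map2, a neuronal microtubule protein, by 1.04. A2m, a protease inhibitor of plasma, rose by 1.26. Hsp90b1 and Manf, proteins of the endoplasmic reticulum chosen after their values were seen, rose by 0.75 and 0.72 (log2 signal 11.20 to 12.20 for Hsp90b1 in the clones, against 10.96 and 11.18 in MPSVII ES).

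**Figure D1:**
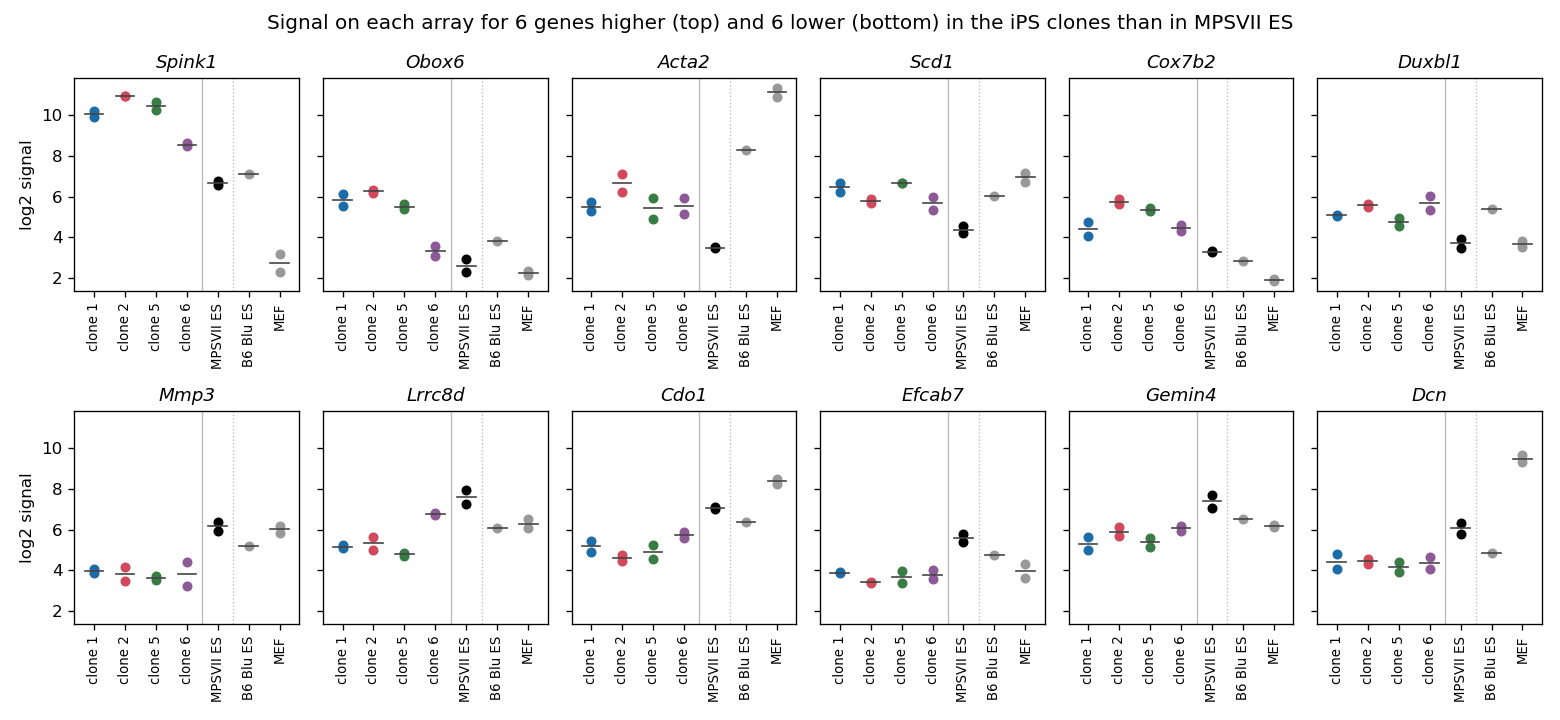
Log2 signal of 12 genes on each array (points) with the mean of each line (bars), for clones 1, 2, 5 and 6, then MPSVII ES, B6 Blu ES and MEF. In the upper panels the 8 clone arrays lie above both MPSVII ES arrays and in the lower panels they lie under both; for Obox6, clone 6 at 3.58 and 3.08 lies close to MPSVII ES.

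The 22 gene lists were written with earlier results of these data known. Among them, genes of sterol and unsaturated fatty acid synthesis gave the most increases, 4 against 3 for pancreas and intestine. Of 25 with a row, 4 rose and 0 fell, and 21 lay above 0, with a median of 0.31. Over all autosomal rows, 0.243% were called higher and the median was -0.04. Scd1, a stearoyl-CoA desaturase, was at 6.24 and 6.67, 5.87 and 5.68, 6.66 and 6.69, and 5.35 and 5.97 in clones 1, 2, 5 and 6, against 4.57 and 4.19 in MPSVII ES. The groups did not overlap, and the difference was 1.76 ± 0.21 (3.39-fold; limma adjusted p = 0.0051). Its paralogue Scd2 was at 4.55 to 5.60 in the clones and at 3.92 and 4.19 in MPSVII ES (0.90 ± 0.18, limma adjusted p = 0.048). Leaving out clone 1, 2 or 5 removed the call for Scd2. Cyp51, the lanosterol demethylase of cholesterol synthesis, was at 5.46 to 6.87 in the clones and at 4.75 and 4.99 in MPSVII ES (1.18 ± 0.22, limma adjusted p = 0.0367).

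Srebf2, the regulator of cholesterol genes, was at 5.87 and 5.99, 5.41 and 5.25, 6.25 and 5.86, and 5.10 and 5.73 in clones 1, 2, 5 and 6, against 4.72 and 4.34 in MPSVII ES. All clone arrays were higher, by 1.15 ± 0.19 on average (limma adjusted p = 0.0242), and clones 2 and 6 had the smaller differences, 0.80 and 0.88. Leaving out clone 1 or clone 5 removed the calls for Srebf2 and Cyp51. Srebf1 differed by 0.04 on the log2 scale without passing the test. In MEF and B6 Blu ES, Srebf2 was at 5.84, 5.86 and 5.97, and Scd1 at 7.18, 6.73 and 6.00, all above both MPSVII ES arrays.

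Other members did not pass the test. Among them, chosen after their values were seen, Stard4, a sterol carrier, differed by 1.24 (limma adjusted p = 0.102) and Insig1, a sterol sensor of the endoplasmic reticulum, by 0.92 (limma adjusted p = 0.0919). Fdps, the farnesyl diphosphate synthase, differed by -1.46 (limma adjusted p = 0.133), with signal between 1.45 and 2.89 on the clone arrays and at 3.42 and 3.95 in MPSVII ES. Under the 3 other scalings the list's median was 0.36 to 0.42, with 6 to 8 members higher and 0 lower. Without either MPSVII ES array 0 members passed, with medians of 0.30 and 0.37.

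Promoters are shown for the called sterol genes that the RefSeq table for GRCm38.p6 holds, 2 of 4, because all 4 of these genes rose. Each sequence is the 250 bases before the annotated start, 5′ to 3′ on the gene's strand, and capitals mark matches to the motifs searched on both strands.
Srebf2, chr15:82147019-82147268, plus strand: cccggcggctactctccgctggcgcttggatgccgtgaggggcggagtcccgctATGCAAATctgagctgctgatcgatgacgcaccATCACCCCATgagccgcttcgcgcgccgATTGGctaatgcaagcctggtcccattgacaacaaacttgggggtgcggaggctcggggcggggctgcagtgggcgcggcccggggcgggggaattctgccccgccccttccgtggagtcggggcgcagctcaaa
Cyp51, chr5:4104698-4104947, minus strand: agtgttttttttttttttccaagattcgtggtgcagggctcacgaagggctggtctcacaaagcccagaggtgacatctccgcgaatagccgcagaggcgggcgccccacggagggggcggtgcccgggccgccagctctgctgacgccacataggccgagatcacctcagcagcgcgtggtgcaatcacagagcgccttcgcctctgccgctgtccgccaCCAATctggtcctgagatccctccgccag

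The motifs were the CCAAT box (CCAAT), the octamer of Oct factors (ATGCAAAT) and, in its 10-base form, the sterol regulatory element, through which SREBP proteins act. The Srebf2 window held the octamer at bases 196 to 189 before the start and the CCAAT box, as ATTGG, at bases 135 to 131. The Cyp51 window held CCAAT at bases 29 to 25. Neither window held the sterol element. After the sequences had been read, the element was searched again with its last base left free, and this second search, chosen on the sequence it matched, marked ATCACCCCAT at bases 163 to 154 of Srebf2. Of 32851 promoter windows of this length, 33.8% held CCAAT, 1.6% the octamer, 0.0731% the sterol element and 0.24% the form with the last base free. A match is a description of the letters and not evidence of binding.

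**Figure D2:**
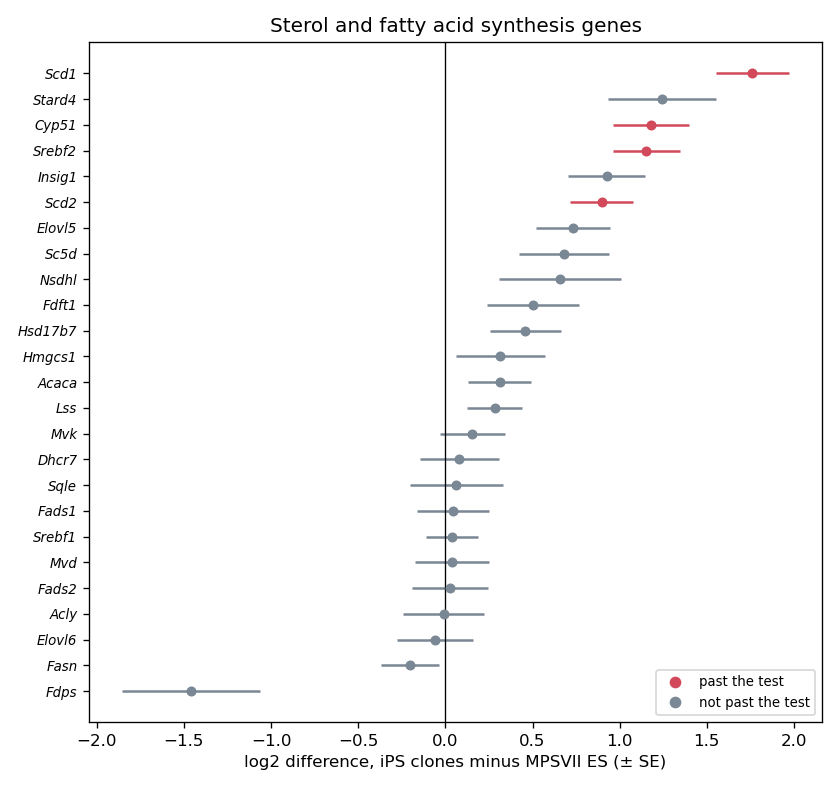
Log2 difference of the 25 sterol and fatty acid genes, iPS clones minus MPSVII ES (points; bars, limma's standard error), with genes past the test in red. Scd1, Cyp51, Srebf2 and Scd2 passed, 21 of 25 points lie above 0, and Fdps lies at -1.46.

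The naive network had the lowest median of the 22 lists. Of 17 genes with a row, 0 rose and 3 fell, 7 had all clone arrays below both ES arrays and 2 lay above 0. The median was -0.76, beside -0.04 over all autosomal rows, of which 0.729% were called lower and 5.46% had all clone arrays below. Tfcp2l1, a transcription factor downstream of LIF, was at 4.88 to 5.77 in the clones, against 6.24 and 6.31 in MPSVII ES (-0.99 ± 0.19, limma adjusted p = 0.0447). Pecam1, a surface adhesion molecule of naive cells, was at 4.22 to 5.78, against 6.68 and 6.64 in MPSVII ES (-1.44 ± 0.27, limma adjusted p = 0.0423). Manba, a lysosomal mannosidase, was the third gene that fell (-1.13 ± 0.22), and its arrays overlapped. B6 Blu ES was at 4.58 for Tfcp2l1, under all clone arrays, and at 4.78 for Pecam1, within the range of the clone arrays.

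Esrrb and Tbx3 differed by -1.003 and -0.91 with all clone arrays below both ES arrays, and missed the threshold (limma adjusted p = 0.0564 and 0.053). In the opposite direction, Dppa3, an oocyte and germline factor chosen after its values were seen, differed by 1.63 ± 0.51 (limma adjusted p = 0.193), and its 2 ES arrays lay far apart, at 2.28 and 4.40. Klf4 was at 4.73 to 5.92 in the clones and at 5.52 and 5.33 in MPSVII ES (-0.12, limma adjusted p = 0.936). The list's median was -0.57 to -0.70 with 8 members lower and 0 higher under the 3 other scalings, and without either ES array 0 members passed. With clone 2 left out, 1 member was lower (median -0.74), and Tfcp2l1, Pecam1 and Manba were not called.

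The core factors differed less. Of 19 core pluripotency genes, 0 rose and 3 fell, with a median of -0.32. Over all autosomal rows, 0.729% were called lower and the median was -0.04. Sox2, a partner of Oct4 on DNA, was at 8.72 and 8.48, 7.96 and 8.08, 8.73 and 8.56, and 9.11 and 9.005 in clones 1, 2, 5 and 6, against 9.79 and 9.24 in MPSVII ES. The clone 6 arrays came closest to the ES arrays and the clone 2 arrays lay lowest. The mean difference was -0.94 ± 0.17 (limma adjusted p = 0.0326). Utf1, a chromatin protein of undifferentiated cells, was at 5.06 to 7.22 in the clones and at 7.78 and 7.28 in MPSVII ES (-1.17 ± 0.20, limma adjusted p = 0.0258). Mybl2, a cell cycle transcription factor, was at 5.38 to 6.76 in the clones and at 7.72 and 7.12 in MPSVII ES (-1.25 ± 0.24, limma adjusted p = 0.0427). In B6 Blu ES, Sox2 was at 9.09, Utf1 at 6.73 and Mybl2 at 5.99, each within the range of the clone arrays. Pou5f1 (-0.53) and Nanog (-0.33) did not pass the test and their arrays overlapped. With clone 2 left out, 0 members passed and the median was -0.15. Sox2 was also not called with clone 1 or clone 5 left out. Under quantile and intensity-dependent normalization 2 members were lower, without Sox2 (medians -0.21 and -0.16). Under median centring 3 were lower (median -0.27).

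Among 32 genes of LIF, Nodal, BMP and FGF signalling, 0 rose and 2 fell, with a median of -0.37. Over all autosomal rows, 0.729% were called lower and the median was -0.04. Bmp4, a ligand that sustains mouse ES cells together with LIF, was at 2.96 to 4.0004 in the clones and at 4.36 and 5.12 in MPSVII ES (-1.37 ± 0.27, limma adjusted p = 0.0462). Leaving out any single clone removed the call for Bmp4. Spred1, an inhibitor of the Ras pathway, fell by 1.03 on the log2 scale. With clone 2 left out, 0 members passed (median -0.26). Myc fell by 1.00 ± 0.19 (limma adjusted p = 0.0422), with 4.10 to 5.10 on the clone arrays against 5.85 and 5.56 in MPSVII ES. Leaving out clone 1 or clone 5 removed the call for Myc. In B6 Blu ES, Bmp4 was at 2.96, under both MPSVII ES arrays, and Myc at 5.55, above all clone arrays. Spred1 was at 6.39 there, above its means in the clones (4.38 to 5.85) and in MPSVII ES (6.08).

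**Figure D3:**
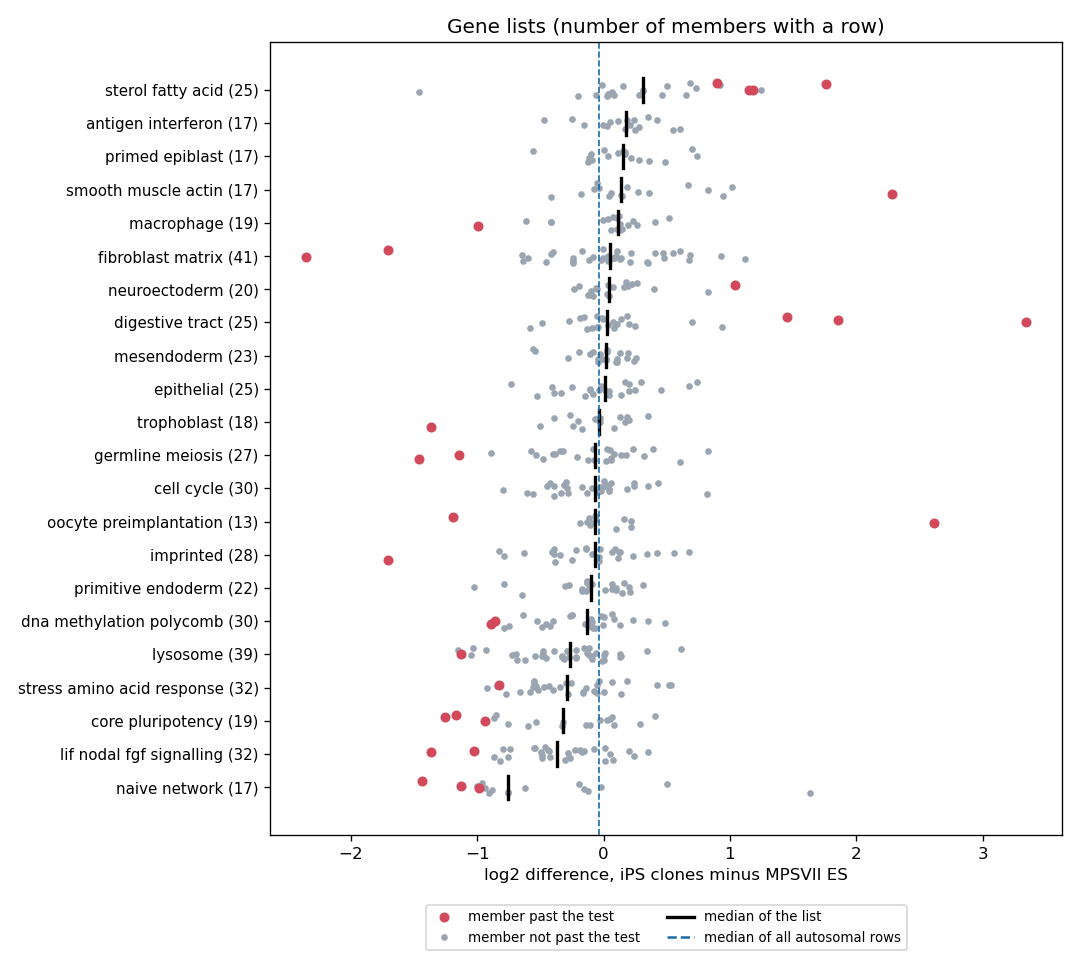
Log2 differences, iPS clones minus MPSVII ES, of the members of 22 gene lists (points; red past the test), with each list's median (black bar) and the median of all autosomal rows (dashed, -0.04). Medians run between -0.76 for the naive network and 0.31 for sterol and fatty acid genes.

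The largest shared decreases came from genes of varied function. Erc1, a scaffold protein of vesicle docking, was at 2.82 to 4.60 in the clones and at 7.09 and 5.42 in MPSVII ES, ES arrays that lay far apart (-2.51 ± 0.48, limma adjusted p = 0.0424). Leaving out clone 1, 2 or 5 removed the call for Erc1. Mmp3, the matrix protease stromelysin, was at 3.24 to 4.40 in the clones, against 6.36 and 5.95 in MPSVII ES (-2.35 ± 0.28, limma adjusted p = 0.00519). Its 4 clones lay close together, between -2.20 and -2.53. Dcn, the matrix proteoglycan decorin, was at 3.91 to 4.78 in the clones and at 6.31 and 5.79 in MPSVII ES (-1.71 ± 0.25), while MEF stood at 9.65 and 9.31. Mmp3 and Dcn were the 2 of 41 fibroblast and matrix genes that fell, and 0 rose (median 0.05). Over all autosomal rows, 0.729% were called lower and the median was -0.04.

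Lrrc8d, a subunit of the volume-regulated anion channel, fell by 2.09 ± 0.23 on the log2 scale, with arrays at 4.72 to 5.65 in clones 1, 2 and 5, at 6.73 and 6.79 in clone 6, and at 7.96 and 7.24 in MPSVII ES. Cdo1, the cysteine dioxygenase, was at 4.47 to 5.90 in the clones and at 7.11 and 6.99 in MPSVII ES (-1.96 ± 0.21). Efcab7, a ciliary protein, was at 3.39 to 4.02 in the clones and at 5.77 and 5.41 in MPSVII ES (-1.90 ± 0.22). Gemin4, of the complex that assembles splicing particles, was at 4.98 to 6.18 in the clones and at 7.70 and 7.07 in MPSVII ES (-1.72 ± 0.23). Tbcc, a tubulin folding cofactor, fell by 1.92, Dido1 by 1.68 on one row and 1.27 on another, the chromatin remodelling subunit Smarce1 by 1.49 and the granulin precursor Grn by 1.47.

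Further shared decreases are named here that were chosen after their values were seen, outside any list. Fabp3, a fatty acid binding protein, was at 8.59 to 10.40 in the clones and at 11.38 and 10.87 in MPSVII ES (-1.26 ± 0.17). Cpt1a and Slc25a20, which carry fatty acids into mitochondria, fell by 1.13 and 1.25, and the epoxide hydrolase gene Ephx2 fell by 1.12. Polr2a, the large subunit of RNA polymerase II, fell by 1.35 and the collagenase Mmp13 by 1.25. Leaving out clone 2 or clone 5 removed the calls for Cpt1a, Slc25a20, Ephx2 and Polr2a. Without clone 1, Slc25a20, Polr2a and Mmp13 were not called.

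Of 27 genes of germ cells and meiosis, 0 rose and 2 fell, with a median of -0.07 (0.729% of all rows were called lower). With clone 2 left out, 1 rose and 1 fell. Ddx4, the germ cell helicase Vasa, was at 5.78 and 6.10 in clone 1, 4.25 and 4.01 in clone 2, 5.68 and 5.62 in clone 5 and 6.22 and 6.40 in clone 6, against 7.07 and 6.87 in MPSVII ES (-1.46 ± 0.17, limma adjusted p = 0.00446). Sycp3, of the synaptonemal complex, fell by 1.14 on average, but by 3.28 in clone 2 and by 0.04 in clone 6. In the oocyte list of 13 genes, Obox6 rose and Nlrp4f fell by 1.20 (0.243% of all rows were called higher).

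Of 30 genes of DNA methylation and Polycomb, 0 rose and 2 fell, the methyl-CpG binding gene Mbd2 (-0.90 ± 0.18) and Aebp2 (-0.86 ± 0.15), a cofactor of Polycomb complex PRC2. The list's median was -0.13, beside -0.04 over all autosomal rows, of which 0.729% were called lower. Jarid2, another PRC2 cofactor, missed the threshold at -0.87 (limma adjusted p = 0.0513). With clone 2 left out, 0 of the 30 passed (median -0.12). Of 39 lysosome genes, 0 rose and 1 (Manba) fell, with a median of -0.27, where 0.729% of all rows were called lower. With clone 2 left out, 1 of them rose and 0 fell. Of the 39, 9 had all clone arrays below both ES arrays (5.46% of all rows), among them Psap (-1.15) and Lamp1 (-1.03), which did not pass. In the macrophage list 1 of 19 fell (Laptm5, by 1.00) and in the stress list 1 of 32 (Mt2, by 0.83), beside 0.729% of all rows. In the lists for primed epiblast, primitive endoderm, mesendoderm, cell cycle, interferon and epithelial genes 0 members were called in either direction by limma.

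The clones differed in how far they stood from MPSVII ES. Tested singly, clone 1 had 104 rows higher (0.722%) and 45 lower (0.312%), clone 2 had 72 higher (0.5%) and 801 lower (5.56%), clone 5 had 79 higher (0.548%) and 152 lower (1.06%), and clone 6 had 3 higher (0.0208%) and 1 lower (0.00694%). By limma, 0 rows were called in the same direction in each of the 4 clones, whereas 42 higher (0.292%) and 149 lower (1.03%) had an unadjusted p under 0.05 in each. The 4 comparisons share the same 2 MPSVII ES arrays and are not independent. Of the 121 shared rows, 49, 96, 74 and 3 were called in clones 1, 2, 5 and 6, and their median size was 1.07, 1.44, 1.24 and 0.99.

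Limma's F test among the 4 clone means called 1305 autosomal rows (9.06%). It called 33 of the 121 shared rows, 5 higher and 28 lower. Among the shared lower rows, clone 2 had the largest difference in 55 of 94 and clone 6 the smallest in 40. Among the shared higher rows, clone 2 had the smallest difference in 16 of 27. Prrg4, a membrane protein with a Gla domain, was one of these 16, and Manf was another, with 0.07 in clone 2 against 0.56 to 1.17 in the others.

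**Figure D4:**
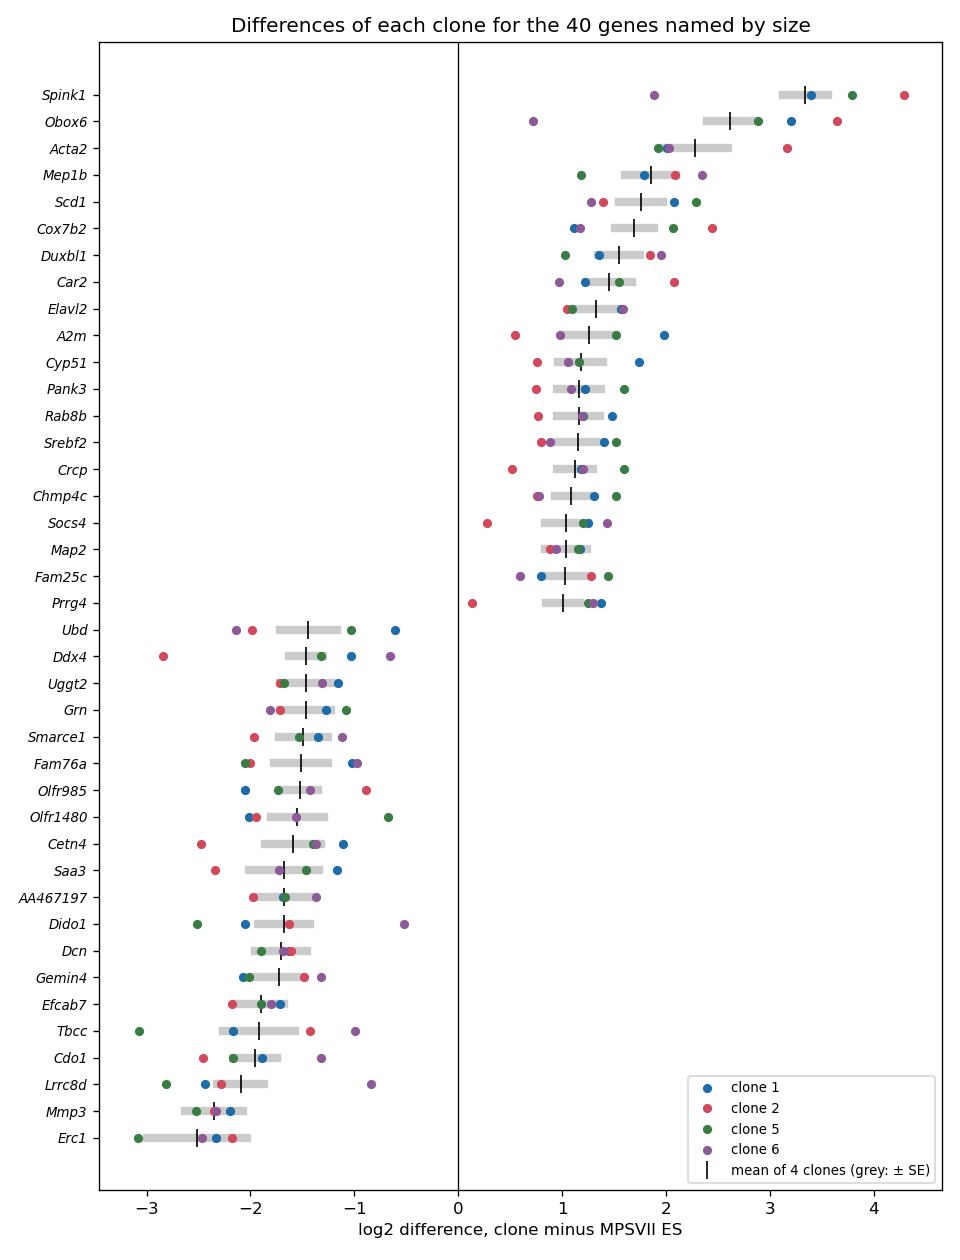
Log2 difference of each clone (coloured points) from MPSVII ES for the 20 largest shared increases and the 20 largest shared decreases, with the mean of the 4 clones (tick) and limma's standard error (grey). Clone 6 lies nearest to 0 for Spink1, Obox6, Lrrc8d and Dido1, and clone 2 farthest from 0 for Spink1, Obox6, Acta2 and Ddx4.

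Chromosome 11 had a larger share of lower rows than any other autosome. Of its 1233 rows, 26 (2.11%) were lower and 2 higher, against 79 of 13172 (0.6%) lower and 33 higher on the other 18 autosomes, whose share of lower rows ranged between 0.234% and 1.54%. The 26 rows differed by -0.80 to -1.72. Grn, Smarce1, Gemin4, Polr2a and Pecam1 lie there. The median difference of chromosome 11 relative to the other autosomes was -0.076 over all its rows, beyond the range of the other 18 (-0.029 to 0.04), and -0.159 over rows at or above the median signal (others -0.042 to 0.073). In each of 10 consecutive stretches of the chromosome it was negative, between -0.109 and -0.245 in the brighter rows.

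Array by array, chromosome 11 stood apart in MPSVII ES. Over brighter rows its median relative to the other autosomes was -0.072 to 0.015 on the 8 clone arrays, 0.136 and 0.116 on the MPSVII ES arrays, -0.006 in B6 Blu ES, and -0.054 and -0.075 in MEF. The groups did not overlap, and MEF and B6 Blu ES also lay below both MPSVII ES arrays. The clones minus B6 Blu ES gave -0.022. The difference did not pass an exact two-sided permutation test over the 45 splits of the 10 arrays, added after the data were seen, once adjusted by Benjamini-Hochberg over the 19 autosomes (p = 0.141 in brighter rows and 0.422 in all rows). Before adjustment p was 0.0222, the smallest these splits allow, for chromosomes 6, 8 and 11 alike in the brighter rows. With that floor, an autosome standing apart alone could not pass after adjustment over the 19. The adjusted test therefore decides nothing about chromosome 11. These splits treat the 2 arrays of a line as independent, and with the 5 lines as units no p under 0.2 can be reached.

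**Figure D5:**
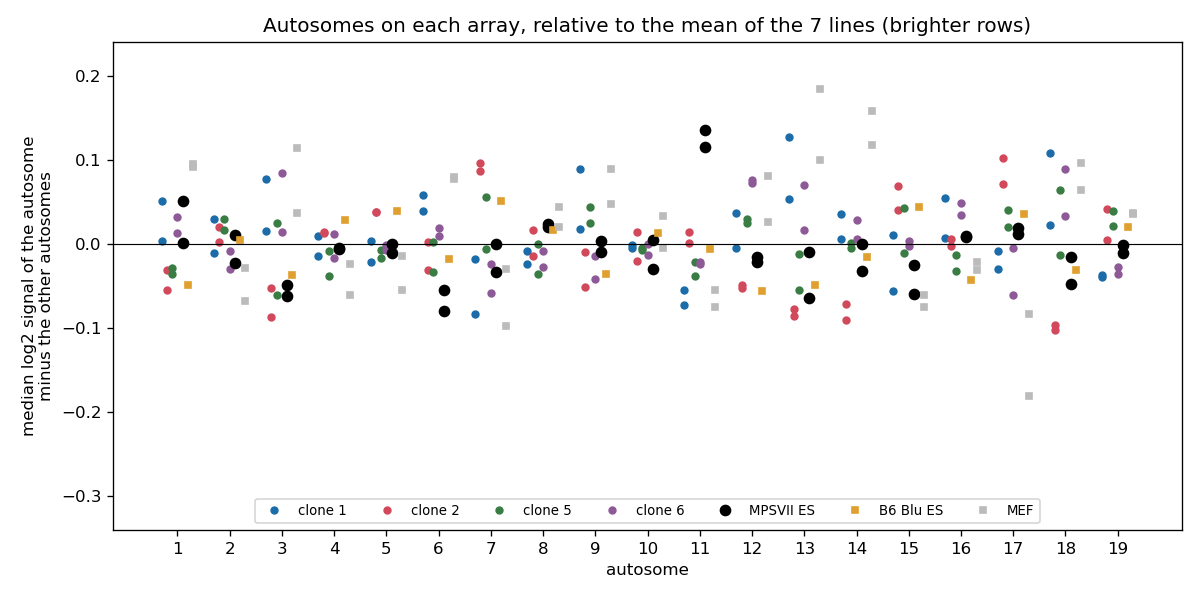
Median log2 signal of each autosome minus that of the other autosomes, on each array, in rows at or above the median signal and relative to the mean of the 7 lines. On chromosome 11 the clone arrays lie between -0.072 and 0.015 and the MPSVII ES arrays at 0.136 and 0.116.

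Off the autosomes, Eif2s3y, a translation factor gene of the Y chromosome, was at 1.52 to 1.91 in the clones, 6.41 and 6.31 in MPSVII ES, 4.80 in B6 Blu ES and 1.79 and 1.81 in MEF (clones minus MPSVII ES -4.66 ± 0.13, limma adjusted p = 4.7e-08). The clones and MPSVII ES therefore differed in signal of this Y-linked gene, and effects of sex, line and reprogramming on the autosomal differences cannot be told apart.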

How the data were processed

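Expression was measured on 13 Affymetrix Mouse Exon 1.0 ST arrays, and the deposited log2 signal was made by the authors with Affymetrix Expression Console and RMA, per the submitters' processing notes, whose versions are not given in the sources used here. RNA was amplified before labelling, per the labels' protocols, and the number of arrays limits the precision. Of 23238 rows, 6577 in a range of low row numbers with no gene were left out as controls and 16661 were tested. Of these, 14939 carry 1 symbol, 989 several and 733 none, by the platform annotation, and 14884 were matched by Entrez number to RefSeq genes of GRCm38.p6, with 14405 rows (14273 symbols) on autosomes.

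With limma 3.58.1 in R 4.3.3, each line was given its own mean in a fit to the 13 arrays (lmFit and eBayes; 6 residual and 4.53 prior degrees of freedom, median residual SD 0.252), with the mean of the 4 clone means minus MPSVII ES as the contrast and Benjamini-Hochberg adjustment over all rows. Errors after ± are limma's standard errors. Named are the 20 largest shared increases and decreases, up to 4 members of each of 22 lists by p (508 of 617 genes matched), 6 fixed genes and Eif2s3y, and genes stated as chosen after their values were seen. The members and lists were chosen with earlier results of these data known. Alternatives were other scalings, a filter on dim rows, left-out arrays or clones, blocks, array weights and other variance priors, and chromosome 11 alternatives, the intensity-dependent scaling of list medians and the second form of the sterol element were added after seeing the data. Replicate numbers did not pair the arrays: deviations of same-numbered arrays correlated between lines with r between -0.241 and 0.240. The fit was tested on simulated data.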

Additional observations from a re-analysis of the deposited data

Results flagged for a closer look

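For 2 genes 1 clone array lay far from the other 7 by Dixon's ratio, which chance alone gives in about 1 in 20 groups (84 genes were looked at). Nlrp4f had 1 array of clone 1 at 5.32, and Gusb had 1 array of clone 1 at 4.25.

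For 21 genes the 4 clones differed from one another by limma's F test (adjusted p over all rows). Among increases, the adjusted p was 0.00203 for Obox6, 0.00406 for Spink1, 0.0121 for Manf, 0.0121 for Prrg4 and 0.0129 for Cox7b2. Among decreases it was 0.00156 for Sycp3, 0.00203 for Ddx4 and 0.00236 for Tex15, where clone 2 was lowest, and 0.00545 for Fabp3, 0.00561 for Utf1, 0.00884 for Mt2 and 0.00999 for Lrrc8d. It was 0.0103 for Laptm5, 0.0147 for Dido1, 0.0173 for Spred1, 0.027 for Aebp2, 0.0343 for Olfr985, 0.0392 for Cpt1a, 0.0408 for Ubd and 0.0428 for Tbcc. Zfp42, a pluripotency factor that did not pass against MPSVII ES (-0.86), had 0.0118.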

How the results depend on the processing

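The counts of autosomal calls, higher and lower in the clones, were 35 and 105 in the deposited values. Leaving out 1 array gave 2 to 37 higher and 0 to 116 lower (shared: 2 to 32 and 0 to 105), lowest without MPSVII ES replicate 1. Leaving out 1 clone gave 11 to 89 higher and 48 to 140 lower (shared: 10 to 82 and 47 to 139), with 15 and 67 (shared 14 and 61) without clone 1, 89 and 70 (shared 82 and 64) without clone 2 and 11 and 48 (shared 10 and 47) without clone 5. The replicate block gave 20 and 73 (shared 18 and 66), and 0 rows called in each clone. Leaving out dim rows gave 67 and 186 (shared 42 and 148), quantile normalization 143 and 230 (115 and 196), median centring 87 and 165 (56 and 140), intensity-dependent normalization 138 and 198 (106 and 171) and array weights 96 and 276 (62 and 219). Clone means as samples gave 0 and 0 (shared 0 and 0), line as a random block 0 and 3 (shared 0 and 3), and a test that kept the control rows 5 and 8 (shared 4 and 8). A minimum difference of 1 gave 23 and 79. The number called in each of the 4 clones was 14 (higher) and 13 (lower) with quantile normalization, 5 and 2 with centring on the median, 6 and 3 without dim rows, 4 and 7 with array weights, and 1 and 0 with a trended and robust prior or with 10 arrays only. The F test called 855 rows with array weights. The chromosome 11 median was -0.159 in brighter rows and -0.065 to -0.086 under the other alternatives. Of 66 called genes followed, 0 reversed. Shared genes could not reverse when arrays or clones were left out, so this count says little about stability. Klf4 was 0.06 after quantile and 0.061 after intensity-dependent normalization and -0.272 to 0.027 in fits without 1 array. Gusb was -0.085 and -0.015 with clones 1 and 2 left out (highest 0.09, clone 5 left out), and -0.06, -0.004, -0.001, -0.018 and -0.022 in fits without 1 array. The cause of these changes was not tested. With 2 MPSVII ES arrays the spread of that side is known poorly, and no detection calls were used, so dim genes have no stated floor.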
